A study of Mus musculus with 55 samples.

Results

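The genes described here are 9 members of the MHC class II antigen presentation machinery, chosen by name from a fixed list and present among the 24478 gene symbols of the expression table. They are the classical class II chain genes H2-Aa, H2-Ab1 and H2-Eb1, the invariant chain gene Cd74, the peptide-exchange genes H2-DMa and H2-DMb1, the transactivator gene Ciita, and the costimulatory ligand genes Cd80 and Cd86. A symbol with several transcript rows was represented by the 1 whose mean across the libraries was highest. RNA was measured by sequencing in 55 libraries of cells sorted by flow cytometry from the livers of C57B/L6 mice, 27 of them normal and 28 following surgical removal of part of the liver (partial hepatectomy, PH). The sorted populations, 10 in all, were Kupffer cells (KC), blood cells, endothelial cells (EC) and those of the sinusoids (LSEC), hepatocytes (HC), Thy1 cells, stellate cells (HSC) and 3 duct sorts, named biliary cells (BEC), clonal biliary cells (cBEC) and non-progenitor ducts (NPD). The normal groups held 4 libraries for HC and for each of cBEC and BEC, 3 for LSEC and 2 for every other sort. After PH there were 5 libraries of LSEC, 4 of HC, 3 each of EC, KC and HSC, and 2 of each other population. Sort gates, age, sex, time after surgery and any batch are not given in the sources used here, and no label ties a library to an animal, so the p-values measure the spread between libraries, which may be technical.

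MHC class II molecules display peptides from engulfed material on the cell surface to CD4+ T cells. An alpha and a beta chain pair in the endoplasmic reticulum and travel with the invariant chain, Cd74, which fills the peptide groove. Proteases of the endosome trim the invariant chain to a short fragment, and the DM heterodimer exchanges that fragment for an antigenic peptide. H2-Aa and H2-Ab1 encode the alpha and beta chains of the I-A molecule. H2-Eb1 encodes the beta chain of I-E, whose alpha chain gene is not functional in C57BL/6 mice, so that H2-Eb1 RNA in this strain does not yield surface I-E. Ciita is the co-activator that switches class II promoters on in dendritic cells, B cells and macrophages and, under interferon gamma, in many other cells. Cd80 and Cd86 encode the ligands of CD28 and CTLA-4, which give or withhold the second signal a T cell needs. In the liver, Kupffer cells are the resident macrophages of the sinusoids and the sinusoidal endothelium also takes up antigen.

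In the mm9 coordinates of the expression table, 5 members lie on chromosome 17 within the major histocompatibility complex: H2-DMa from 34259776 to 34276046, H2-DMb1 from 34290135 to 34297174, H2-Ab1 from 34400171 to 34406363, H2-Aa from 34419695 to 34424716 and H2-Eb1 from 34442811 to 34453619. On chromosome 16 lie Ciita, from 10489873 to 10527733, Cd86, from 36603954 to 36666163, and Cd80, from 38459012 to 38487014. H2-Aa and Cd86 are on the minus strand and the others on the plus strand. Ciita had 5 transcript rows and Cd74 had 2, and each other member had 1.

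Class II promoters are known for a conserved module upstream of the start, in which an X box, bound by the RFX complex, precedes a Y box, bound by NF-Y, and on which Ciita is recruited. RefSeq promoter windows in the GRCm38.p6 build, 250 bases before to 50 bases after a start, were matched for 5 of the 9 members, which gave 6 windows. A script searched the part before the start on both strands for the Y box letters CCAAT, the X box core ACNGATG and the X2 box TGNGTCA. The 80 bases from 110 to 31 before the start are printed below for the 3 members that carried a Y box in them, to show the spacing of the boxes, with the matches in capitals and each sequence 5′ to 3′ on the strand of its gene. They lie at chr17:34305757-34305836 (plus strand) for H2-Eb1, chr17:34153081-34153160 (plus strand) for H2-DMb1 and chr17:34287854-34287933 (minus strand) for H2-Aa.
H2-Eb1: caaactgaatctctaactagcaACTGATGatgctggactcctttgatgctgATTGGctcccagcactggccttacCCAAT
H2-DMb1: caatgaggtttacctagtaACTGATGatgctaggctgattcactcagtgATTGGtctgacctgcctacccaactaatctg
H2-Aa: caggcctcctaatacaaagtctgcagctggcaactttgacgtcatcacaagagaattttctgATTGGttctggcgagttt

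H2-Eb1 and H2-DMb1 both carried an X box core on the gene's strand followed by a Y box in the reverse orientation (ATTGG). The first bases of the boxes were 29 bases apart in H2-Eb1 and 30 bases apart in H2-DMb1. H2-Aa had the reversed Y box, starting 48 bases before the start, and its X box core match was on the opposite strand at 232 to 226 bases before the start. In H2-DMa, 1 of the 2 windows had an X2 box at 86 to 80 bases and a Y box at 198 to 194 bases, and the other had no match, and Cd80 had no match of any of the 3 motifs. Over 32851 promoter windows, 33.8% held a Y box, 8.31% an X box core and 2.77% both. An X box core with a Y box of the opposite orientation within 40 bases was in 76 windows (0.231%), and this spacing was chosen after the matches were seen. A match is a match of letters only.

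**Figure D1:**
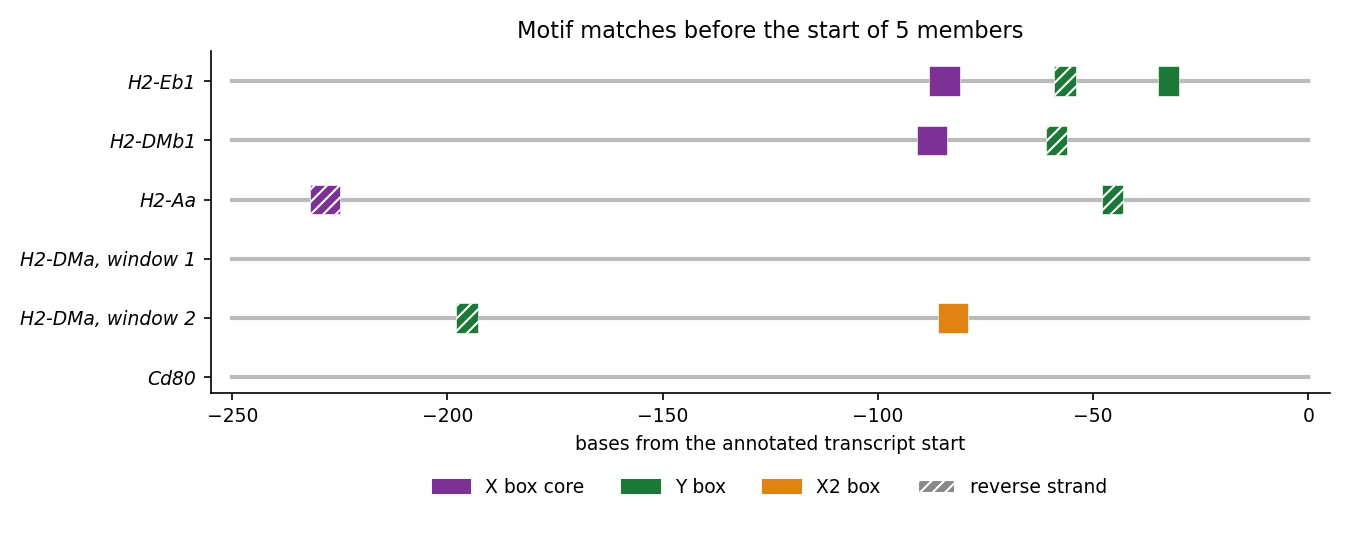
Matches of the 3 motifs in the 250 bases before the annotated start of 5 members (6 windows); the x axis is the distance from the start in bases and hatching marks the reverse strand. H2-Eb1 and H2-DMb1 share an X box core followed by a reversed Y box about 30 bases closer to the start, and Cd80 and 1 H2-DMa window are empty.

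The values are taken as FPKM from the name of the deposited table, that is, as fragment counts scaled by transcript length and library total. Levels of different genes are set side by side on that assumption. Ciita and Cd74 are represented by 1 of their 5 and 2 transcript rows, so their levels depend on how reads were split between rows. Summed FPKM per library ran from 624726 to 1203197, the lowest correlation between replicates was 0.919 (PH HSC), and the read depth behind each value is unknown. Each sort held the markers of its own label, such as a hepatocyte marker sum of 64400 to 95900 FPKM in HC and a biliary sum of 9350 to 21500 in cBEC and BEC. Some sorts also held markers of another label. The biliary sum was 865 to 5100 in normal Thy1 cells, beside 2580 to 3800 in normal NPD. A Thy1 portal fibroblast marker sum was 923 to 1890 in PH HSC and 648 to 1200 in PH Thy1 cells. The LSEC marker sum was 3110 to 6690 in normal EC and 5400 to 10700 in normal LSEC. The blood sort differed in make-up between treatments: its Kupffer marker sum (9 genes) was 927 to 1330 FPKM in normal liver and 13800 to 23600 after PH, while its B cell sum (7 genes) was 600 to 865 and then 30.5 to 68.2. PH cBEC 1 is tagged as normal in its treatment label, against its title, and was placed by the title. In sorts other than hepatocytes, 11.8% of values were exactly 0 for genes at 300 FPKM or more in hepatocytes, against 1.23% for genes under 30 FPKM there, the range in which all members lie.

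In normal liver the highest levels of all 9 members were in the KC and blood sorts. Among the chains, H2-Aa stood at 1400 and 1950 FPKM in the 2 KC libraries and at 1290 and 952 in the 2 blood libraries. H2-Ab1 stood at 1040 and 1680 in KC and at 2030 and 1470 in blood, where the ranges overlapped. H2-Eb1 was 525 and 819 in KC and 413 and 288 in blood. In every one of these the lowest KC or blood library lay above every library of the other 8 populations.

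Cd74, on chromosome 18, was the most abundant member, at 4070 and 4750 FPKM in normal KC and 5240 and 3540 in normal blood, with overlapping ranges. The DM genes stood at a small fraction of that level. H2-DMa was at 155 and 158 FPKM in KC and at 155 and 101 in blood, and H2-DMb1 was at 112 and 132 in KC and at 141 and 86.8 in blood. Ciita was low, at 13.9 and 14.7 FPKM in KC and 27.8 and 18.3 in blood, with no overlap. Reads of H2-DMb1 may be shared with its near-identical neighbour H2-DMb2, so the split between that pair is uncertain.

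Below these 2 sorts, the ducts and the Thy1 cells came next in mean Cd74, H2-Ab1, H2-DMb1 and Ciita, with libraries that overlapped one another. For other members the order differed: HSC had the next highest mean of H2-DMa (7.107 FPKM), and its means of H2-Aa (38.44) and H2-Eb1 (22.38) were above those of cBEC (19.53 and 14.34). The mean Cd74 level was 201.2 ± 94 FPKM (SD, n = 4) in BEC, 174.1 ± 110 (SD, n = 2) in NPD, 156.2 ± 102 (SD, n = 2) in Thy1 cells and 120.9 ± 51.5 (SD, n = 4) in cBEC. H2-Ab1 was lower, with cBEC at 38.46 ± 26.3 FPKM (SD, n = 4) and BEC at 77.12 ± 39.9 (SD, n = 4). Ciita was 2.477 ± 1.78 FPKM (SD, n = 4) in BEC and 1.328 ± 0.913 (SD, n = 4) in cBEC. In normal Thy1 1 and 2, Cd74 was 228 and 83.9 FPKM beside a biliary marker sum of 865 and 5100, whose part was not tested. Stellate and endothelial sorts were uneven: Cd74 was 12.3 and 146 FPKM in the 2 HSC libraries and 92.2, 113 and 2.52 in the 3 LSEC libraries. The HSC library with 146 FPKM of Cd74 had a Kupffer marker sum of 1130 FPKM, against 83.6 in the other. Hepatocytes were lowest, with Cd74 at 1.38, 1.54 and 1.6 FPKM in 3 libraries and 15.9 in normal HC 4.

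Cd80 and Cd86 were low outside KC and blood, also in the ducts and Thy1 cells. Cd86 was 130 and 117 FPKM in normal KC and 21.3 and 26 in normal blood, and no library of another normal population exceeded 8.71, a value reached by the HSC library with the high Kupffer sum. Cd80 was 19.7 and 15.1 FPKM in KC and 2.96 and 3.7 in blood, and at most 0.831 elsewhere. In cBEC, where Cd74 was at least 77.8 FPKM, Cd86 was at most 0.52 and Cd80 at most 0.146.

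**Figure D2:**
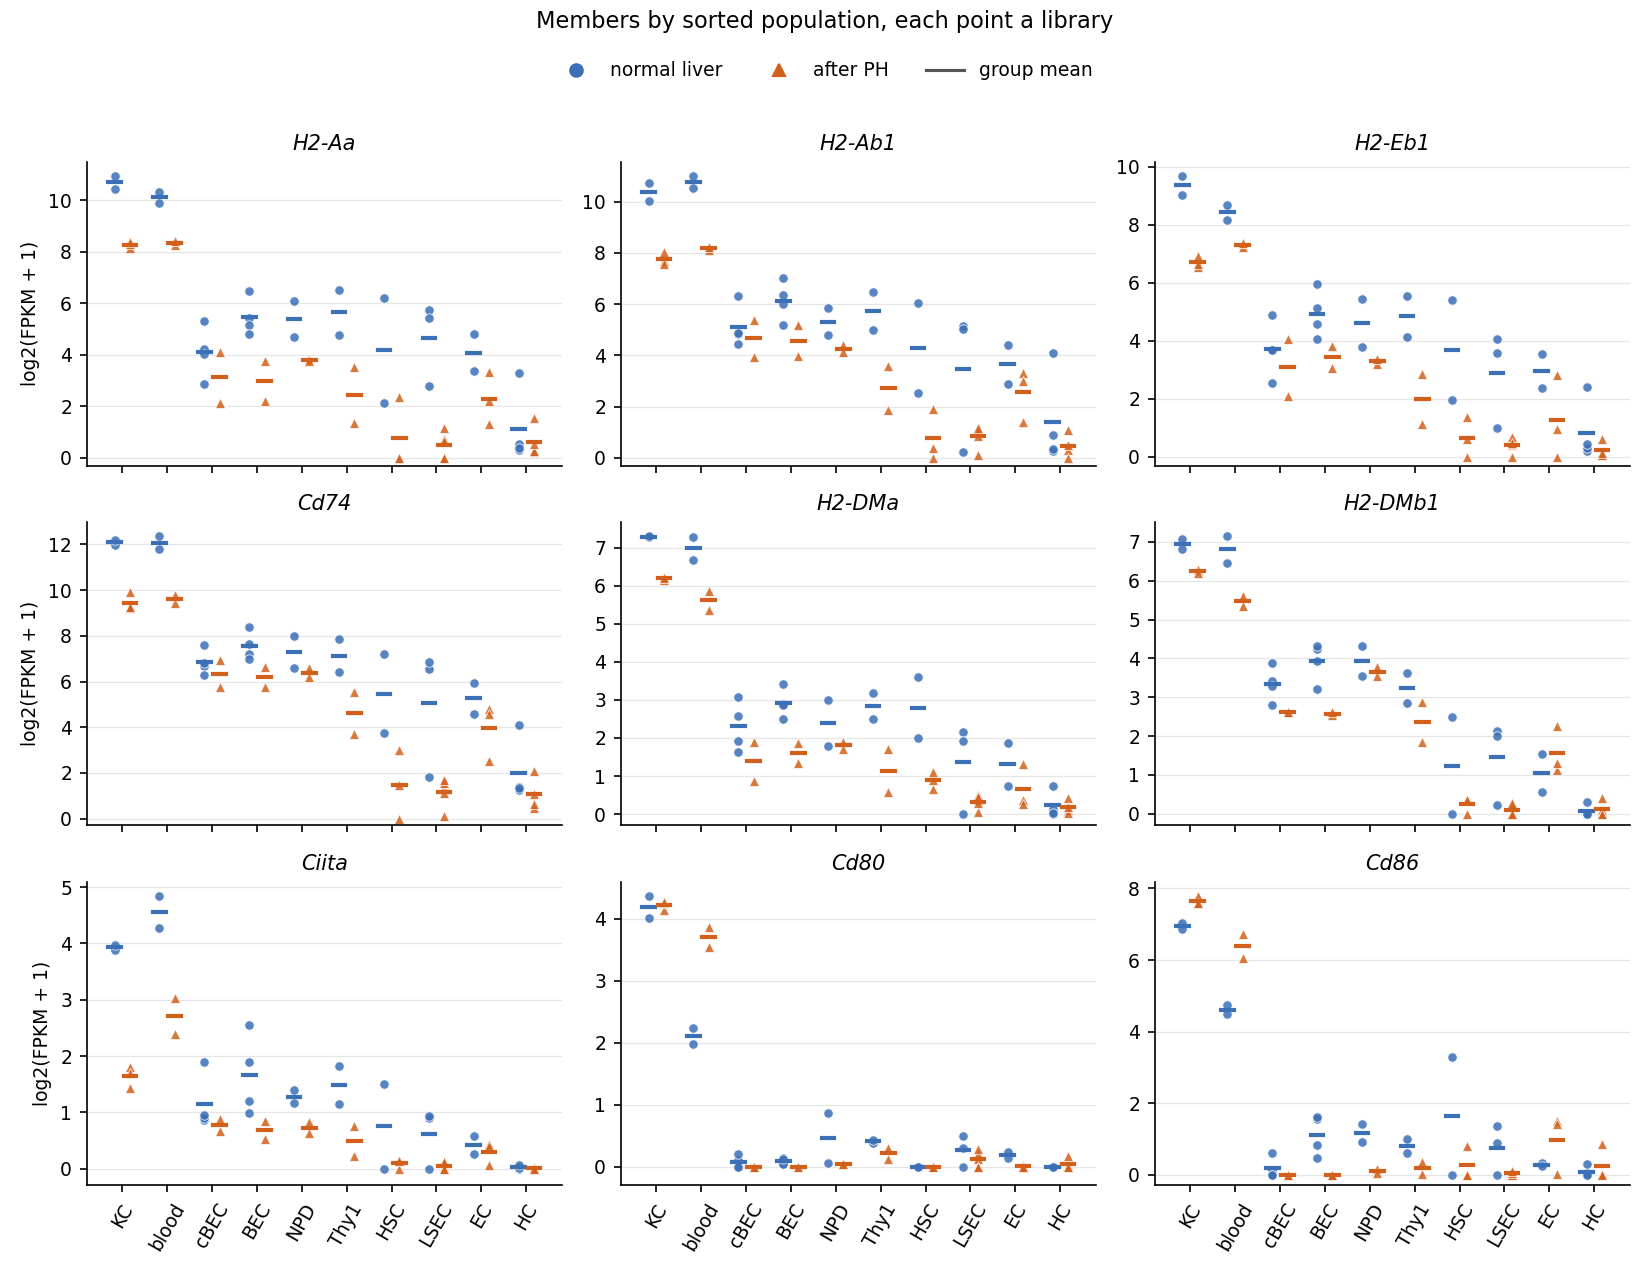
Level of each member on a log2(FPKM + 1) axis in every library of the 10 sorted populations, circles for normal liver, triangles for after PH and a bar for the group mean; the axes differ between panels. The 7 class II genes are highest in KC and blood and lower there after PH, while Cd80 and Cd86 in those sorts are level with or above their normal values.

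To ask how the 2 leading sorts of normal liver differ, KC were compared with blood cells by limma on log2(FPKM + 1), with adjustment over all genes tested and adjusted p under 0.05 as the call. Of all genes tested 74.9% were called (27.4% higher and 47.5% lower in KC), and of the members 4 of 9. Cd86 was 5.08-fold higher in KC (log2 difference 2.34, SE 0.14, adjusted p 0.000147) and Cd80 was 4.23-fold higher (2.08, SE 0.19, adjusted p 0.000481). H2-Eb1 was 0.93 higher on the log2 scale (adjusted p 0.029) and Ciita was lower, with a log2 difference of -0.62 (adjusted p 0.0444). Cd74 (log2 difference 0.03, SE 0.23), H2-DMa (0.31, SE 0.22), H2-DMb1 (0.14, SE 0.25), H2-Aa (0.58, SE 0.24) and H2-Ab1 (-0.38, SE 0.29) did not pass. The calls of H2-Eb1 and Ciita were lost when any of several libraries was left out, which leaves 1 library in that group. Over their alternatives the log2 difference kept its sign, at 0.61 to 1.25 for H2-Eb1 and -0.91 to -0.33 for Ciita. H2-Eb1 lost its call without normal blood 1, normal blood 2 or normal KC 2 (adjusted p 0.0993, 0.236 and 0.125), and Ciita lost it without normal blood 1, normal KC 1 or normal KC 2 (0.119, 0.141 and 0.107). Over their alternatives the adjusted p ran from 0.0208 to 0.401 for H2-Eb1 and from 0.0256 to 0.193 for Ciita.

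Of the other contrasts within normal liver, LSEC against EC called 0.00843% of genes and 0 of the 6 members tested by limma, also at an unadjusted p under 0.05. Clonal biliary cells against non-progenitor ducts called 29.7% of genes (18.5% higher and 11.2% lower in cBEC) and 0 of 7 members by limma, again 0 at an unadjusted p under 0.05. The widest of those 7 differences was that of H2-Aa, which averaged 19.53 ± 13.6 FPKM in cBEC (SD, n = 4) and 45.54 ± 29.7 in NPD (SD, n = 2) (log2 difference -1.26, SE 0.72).

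After PH, Kupffer cells held a much lower level of the class II genes together with an equal or higher level of the costimulatory ligands. Of the 9 members 7 fell and 1, Cd86, rose, beside 36.8% of all 11835 genes called (20.1% lower and 16.7% higher). The median log2 change of the members was -2.29, against -0.04 over all genes tested. Fewer cells of a type in a bulk sort and less RNA per cell cannot be told apart.

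The chains fell 5.36- to 6.29-fold on the log2(FPKM + 1) scale. H2-Aa was 1400 and 1950 FPKM in normal KC and 282, 312 and 330 after PH (limma log2 change -2.42, SE 0.17, adjusted p 0.00139). Every PH library lay far below both normal ones. H2-Ab1 was 1040 and 1680 before and 203, 188 and 263 after (log2 change -2.61, SE 0.25, adjusted p 0.00202). H2-Eb1 was 525 and 819 before and 92.8, 100 and 119 after (-2.65, SE 0.22, adjusted p 0.00161).

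Cd74, the invariant chain, went from 4070 and 4750 FPKM to 589, 603 and 970 (limma log2 change -2.65, SE 0.25, adjusted p 0.00188). Ciita went from 13.9 and 14.7 FPKM to 2.51, 2.22 and 1.71, a change of -2.29 (SE 0.19, adjusted p 0.00155). The groups were apart by several fold in both genes. The DM genes fell by less. H2-DMa was 155 and 158 FPKM before and 70, 73.5 and 73.2 after (-1.10, SE 0.10, adjusted p 0.00182), and H2-DMb1 was 112 and 132 before and 78.6, 76.1 and 72 after (-0.68, SE 0.12, adjusted p 0.0109).

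Cd86 moved the other way, from 130 and 117 FPKM to 192, 220 and 193 (log2 change 0.70, SE 0.12, limma adjusted p 0.00963), with all PH libraries above both normal ones. Cd80 was 19.7 and 15.1 FPKM before and 16.6, 18 and 18.3 after, with overlapping ranges (log2 change 0.03, SE 0.16, adjusted p 0.905). Without normal KC 1 or normal KC 2 the call of Cd86 was lost (adjusted p 0.0575 and 0.0796), and without normal KC 2 that of H2-DMb1 was lost too (0.0791). Over their alternatives the adjusted p ran from 0.00334 to 0.301 for Cd86 and from 0.00453 to 0.297 for H2-DMb1. With all 20 groups in a single fit, 3 members passed (H2-Eb1, Cd74 and Ciita).

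Markers of other cells were measured beside this change. Clec4f, a C-type lectin receptor of Kupffer cells, was 4310 and 3500 FPKM in normal KC and 4290, 4550 and 5140 after PH, with overlapping ranges. The Kupffer marker sum over 9 genes was 19900 to 21800 FPKM in normal KC and 37400 to 39200 after PH. The LSEC marker sum (7 genes) in the KC sort was 3490 to 4820 FPKM in normal liver and 284 to 528 after PH, and its part in the result was not tested. In KC the B cell sum was 41.7 to 53.1 FPKM before and 34.6 to 37.9 after. The dendritic cell sum in KC was 107 and 79.6 before and 99, 112 and 84.3 after. Of its 9 genes, 5 and 3 were under 1 FPKM in normal KC 1 and 2, and 5 in each PH library. The part of both sums in the values was not tested. Siglech, a plasmacytoid dendritic cell gene, was at most 0.681 FPKM in KC.

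Other genes of the class II pathway moved in both directions in Kupffer cells. Of 24 such genes 23 were tested, of which 6 rose and 5 fell, with a median log2 change of -0.04, equal to that of all genes. The endosomal proteases Ctsd (1594 ± 38.8 FPKM, SD, n = 2, before and 3805 ± 127, SD, n = 3, after; log2 change 1.25, adjusted p 0.00142) and Lgmn (1534 ± 34 and 3340 ± 130; 1.12, adjusted p 0.00164) rose. The interferon-regulated transcription factor Irf1 fell (187.4 ± 9.69 FPKM before and 57.21 ± 7.95 after; log2 change -1.70, adjusted p 0.00164). Of 8 other costimulatory genes 5 were tested and 2 fell, Cd83 (-1.59) and Icosl (-0.80), and 0 rose. Of 13 class I presentation genes 2 rose, the chaperones Calr (1.29) and Pdia3 (0.70), and 5 fell, among them Nlrc5, the class I counterpart of Ciita (-1.26), and the heavy chain gene H2-K1 (-0.99).

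In the blood sort all 9 members passed, 7 lower and 2 higher, where 64.0% of all genes did (39.7% lower and 24.3% higher). The median change of the members was -1.36, against -0.31 over all genes tested. H2-Ab1 was 2030 and 1470 FPKM in normal blood and 276 and 297 after PH (log2 change -2.59, SE 0.23, limma adjusted p 0.00147). Cd74 was 5240 and 3540 before and 700 and 876 after (-2.46, SE 0.29, adjusted p 0.00266), and H2-Aa was 1290 and 952 before and 303 and 341 after (-1.78, SE 0.23, adjusted p 0.00316). The fall was smallest in H2-Eb1 (-1.14), H2-DMb1 (-1.33) and H2-DMa (-1.36), and Ciita fell from 27.8 and 18.3 FPKM to 4.29 and 7.15 (-1.84). No PH library of these 7 genes reached the normal range. The share of all genes without overlap between these groups was not counted.

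The ligand genes rose in the blood sort. Cd80 was 2.96 and 3.7 FPKM in normal blood and 10.6 and 13.6 after PH (log2 change 1.6, SE 0.22, limma adjusted p 0.00361). Cd86 was 21.3 and 26 before and 65.7 and 105 after (1.78, SE 0.27, adjusted p 0.00506). These values moved with the make-up of the sort. Clec4f was 163 to 272 FPKM before and 1720 to 2680 after, and Siglech was 437 to 778 before and 9.93 to 22.2 after. The T and NK cell sum (6 genes) was 2120 to 2310 before and 34.6 to 70.4 after, and the B cell and Kupffer sums were as given above. Endothelial markers were higher after PH: the LSEC sum (7 genes) was 765 to 875 before and 2710 to 6110 after. The pan-endothelial sum (6 genes) was 265 to 283 before and 823 to 1540 after. The part of these shifts in the 9 changes was not tested. Without normal blood 1, 3 members passed (H2-Aa, H2-Ab1 and Cd74), without normal blood 2 all but Cd86, and with all 20 groups in a single fit 5.

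Other genes of the pathway in the blood sort changed both ways, 9 higher and 11 lower of 24 tested. The protease Lgmn (log2 change 3.99) and Nfya (3.34), a subunit of the NF-Y complex of the Y box, rose most. H2-DMb2 (-4.04) and H2-Ob (-3.88), the beta chain of the DM inhibitor DO, fell most. H2-DMb2 was 67.48 ± 14.1 FPKM (SD, n = 2) before and 3.341 ± 1.92 (SD, n = 2) after. Of the 8 other costimulatory genes 6 fell and 0 rose, led by the receptors of CD80 and CD86 on T cells, Cd28 (-4.82) and Ctla4 (-3.75). Of the 13 class I genes 10 fell, led by Nlrc5 (-3.08) and Tap1 (-2.18), and 1 rose, Calr (1.58).

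**Figure D3:**
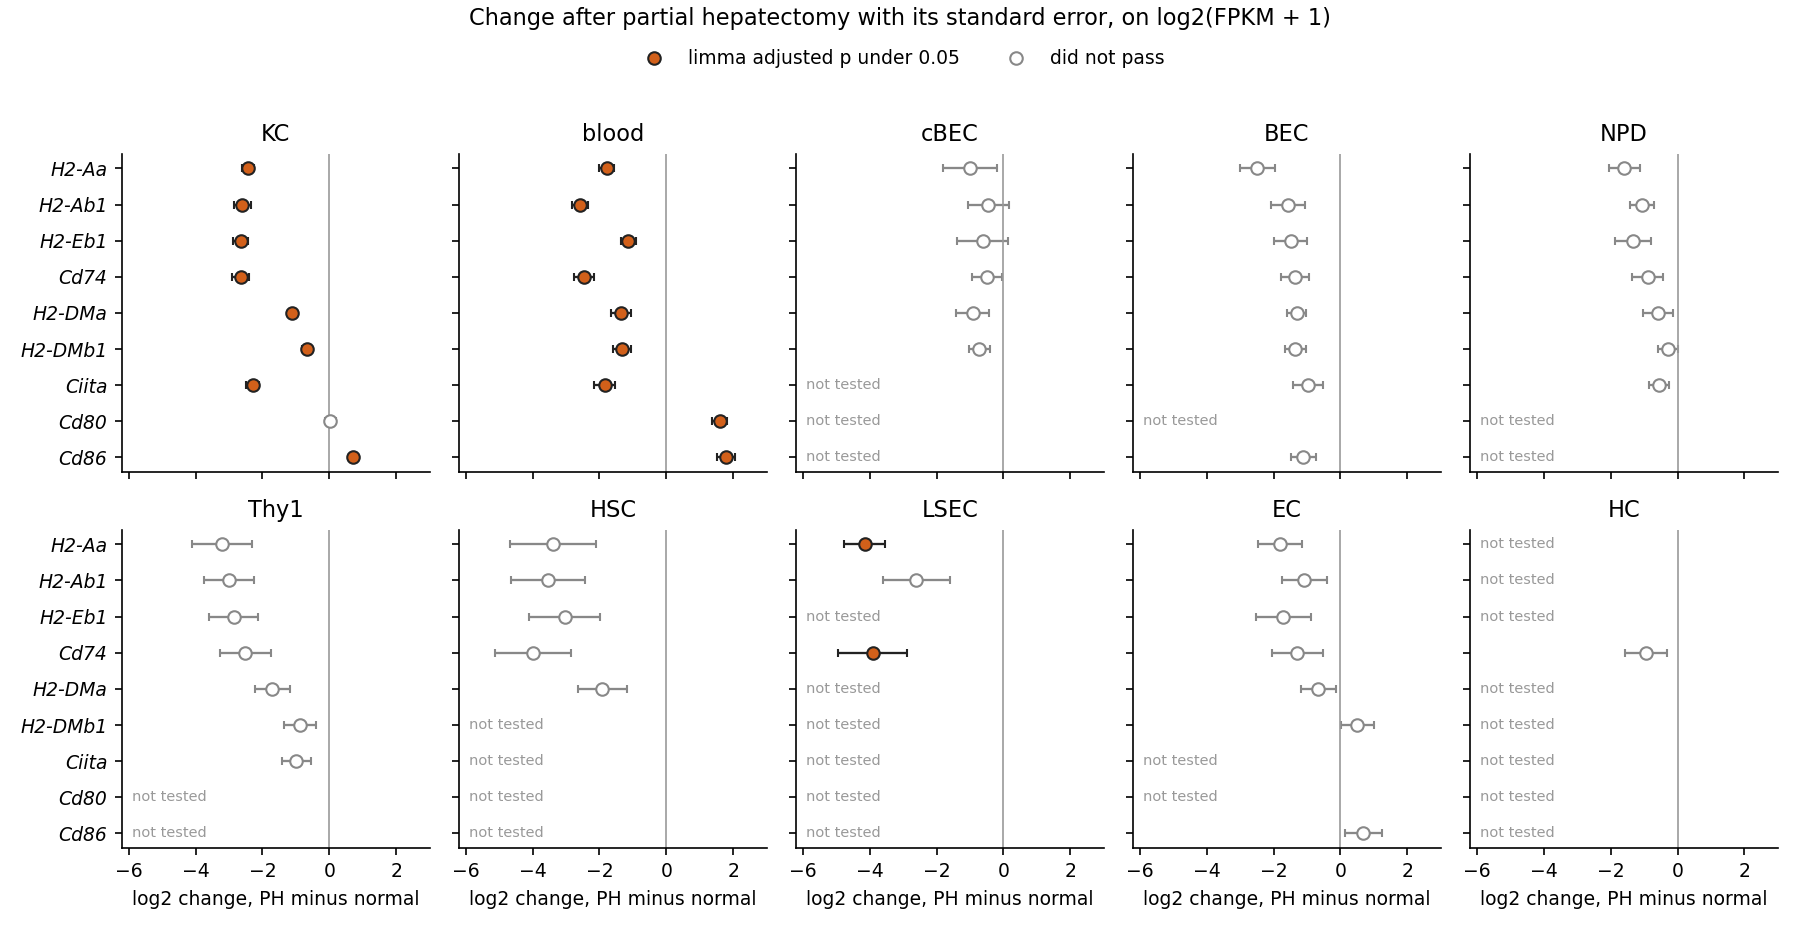
Log2 change of each member after PH in each sorted population, on log2(FPKM + 1), with bars of 1 standard error; filled points passed the limma call and members that did not pass the filter on low values are marked as not tested. Of the filled points, 3 are to the right of zero: Cd80 and Cd86 in blood and Cd86 in KC.

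A test of the difference between the responses of KC and blood used all 20 groups in a single fit and called 46.1% of all genes (25.3% higher and 20.8% lower). Of the 9 members 1 passed: the log2 change of Cd80 was 0.03 in KC and 1.6 in blood, a difference of -1.57 (SE 0.24, adjusted p 7.24e-07). With a pseudocount of 0.1 that call was lost (adjusted p 0.0854, over alternatives 1.05e-07 to 0.0854), and with the libraries of these 4 groups alone 3 members passed. H2-Eb1 changed by -2.65 in KC and -1.14 in blood, a difference of -1.51 (SE 1.25) that did not pass. Cd74 (difference -0.19, SE 1.5), H2-Ab1 (-0.02, SE 1.52) and Cd86 (-1.08, SE 0.72) did not pass either. The standard errors of H2-Eb1, Cd74, H2-Ab1 and Cd86 take in the spread of all 20 groups and were too wide to show how far the responses differed. That of Cd80 takes in sorts where it was listed at 0 in every library, such as PH cBEC, PH BEC and PH HSC. The adjusted p of Cd80 therefore does not measure the spread in KC and blood alone. In the fits of their own groups the SE of the Cd74 change was 0.25 in KC and 0.29 in blood. The SE of the Cd80 change was 0.16 in KC and 0.22 in blood.

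Sinusoidal endothelium held almost no class II RNA after PH, and its normal level differed by library. Only 3 members passed the filter, and 2 of them were lower after PH, where 8.46% of all genes were called (4.31% lower and 4.15% higher). H2-Aa was 52.3, 41.9 and 5.95 FPKM in normal LSEC and ran from 0 to 1.2 (median 0.59) in the 5 PH libraries (log2 change -4.15, SE 0.61, limma adjusted p 0.00527), with no overlap. Cd74 was 92.2, 113 and 2.52 FPKM before and ran from 0.0851 to 2.2 (median 1.45) after (-3.91, SE 1.02, adjusted p 0.0486). H2-Ab1 was 34, 31.8 and 0.165 before and 0.0786 to 1.24 after, with overlap (-2.61, SE 1, adjusted p 0.145). Normal LSEC 3 was low in all of these, and without it all 3 passed. The call of Cd74 was lost in 12 of 15 alternatives (adjusted p 0.000474 to 0.163), which included leaving out any other library, and that of H2-Aa in 1 (0.000195 to 0.0837).

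Markers of other cells were measured in the same libraries. Clec4f was 44.3, 14.3 and 1.71 FPKM in the normal LSEC libraries and 0.356 to 2.15 after PH. H2-Aa and H2-Ab1 followed that order in normal LSEC, while Cd74 and H2-Eb1, at 10.9, 15.9 and 0.989 FPKM, were highest in normal LSEC 2. The B cell sum (10.8, 27.2 and 2.2 FPKM) and the T and NK cell sum (1.19, 12.7 and 0) were also highest in normal LSEC 2. After PH they ran from 5.83 to 11.1 and from 0 to 0.761. Of the 7 B cell genes, 4, 0 and 6 were under 1 FPKM in normal LSEC 1, 2 and 3, and 6 in each PH library. C1qb, a complement gene of the Kupffer list, was 3.83 to 58.4 FPKM before and 82.9 to 181 after, and the whole Kupffer sum was 11.8 to 251 FPKM before and 96.7 to 207 after. The part of these markers in the result was not tested. Of the other pathway genes in LSEC, the protease Ctsb rose (0.83), Cd274, which encodes the inhibitory ligand PD-L1, fell (-1.44), and of the class I genes Calr rose (1.19) and Nlrc5 fell (-1.53).

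The EC sort gave 0 of 7 members called by limma (0.0249% of all genes), and 1 member, H2-Aa, at an unadjusted p under 0.05. H2-Aa was 27.3 and 9.21 FPKM in normal EC and 1.47, 9.12 and 3.57 after PH. Cd74 was 59.7 and 23.3 before and 4.68, 26.7 and 23.2 after, with overlap. The response of LSEC less that of EC passed for 0 of 7 members (0.491% of genes, 0.359% lower and 0.133% higher; 3 members at an unadjusted p under 0.05), with a difference of -2.61 (SE 1.29) for Cd74. Without normal LSEC 3, 1 member passed. For EC and for this difference of responses, the shares of all genes at an unadjusted p under 0.05 were not counted.

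Class II RNA was measured in ducts after PH beside low levels of Kupffer and B cell markers. Most genes of the dendritic cell and monocyte lists were under 1 FPKM in these libraries. In PH cBEC, Cd74 was 123 and 52.5 FPKM, H2-Ab1 40.9 and 14.2, H2-Aa 16.3 and 3.38 and Ciita 0.839 and 0.595. Clec4f was listed at 0 in both of those libraries, 7 and 8 of the 9 Kupffer markers were at 0, the B cell sum was 0.0327 and 0, and Siglech, Cd80 and Cd86 were at 0. Csf1r was the exception among the Kupffer markers, at 59.3 and 43.3 FPKM. The dendritic cell sum (9 genes) was 6.25 and 8.62 FPKM there, with 5 and 8 of its genes at 0, and the monocyte sum (5 genes) was 0.641 and 0.572. The biliary marker sum (7 genes) in these libraries was 15700 and 17500 FPKM.

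PH BEC libraries were alike, with Cd74 at 98.7 and 52.8 FPKM, Clec4f at 0.158 and 0.804, a Kupffer sum without Csf1r of 0.622 to 4.41, a dendritic cell sum of 5.57 and 5.11 and a monocyte sum of 0.611 and 0.816. In PH NPD, Cd74 was 73.3 and 94.6 FPKM, with Clec4f at 1.43 and 0.596. The dendritic cell sum in NPD was 11.3 and 10.4 FPKM before and 11.8 and 15.2 after. The monocyte sum there was 3.81 and 2.1 before and 20.4 and 19.2 after. In each PH NPD library 7 of the 9 dendritic cell genes and 4 of the 5 monocyte genes were under 1 FPKM. In each PH BEC library 8 of the 9 dendritic cell genes were under 1 FPKM. The part of these markers in the duct values was not tested. Normal cBEC 3 had 77.8 FPKM of Cd74 and 0.867 of Ciita with Clec4f at 0.224, a Kupffer sum without Csf1r of 0.641 and a dendritic cell sum of 5.72. Cd74 per unit of Clec4f was 0.944 and 1.36 in normal KC and 0.137, 0.132 and 0.189 in PH KC. It was 625 and 65.6 in PH BEC and 51.2 and 159 in PH NPD. Outside ducts it was 80.9 and 65.9 in PH Thy1 cells and 32.2 and 13 in normal blood. This ratio has no upper bound where Clec4f is near 0, and what it reflects was not tested.

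**Figure D4:**
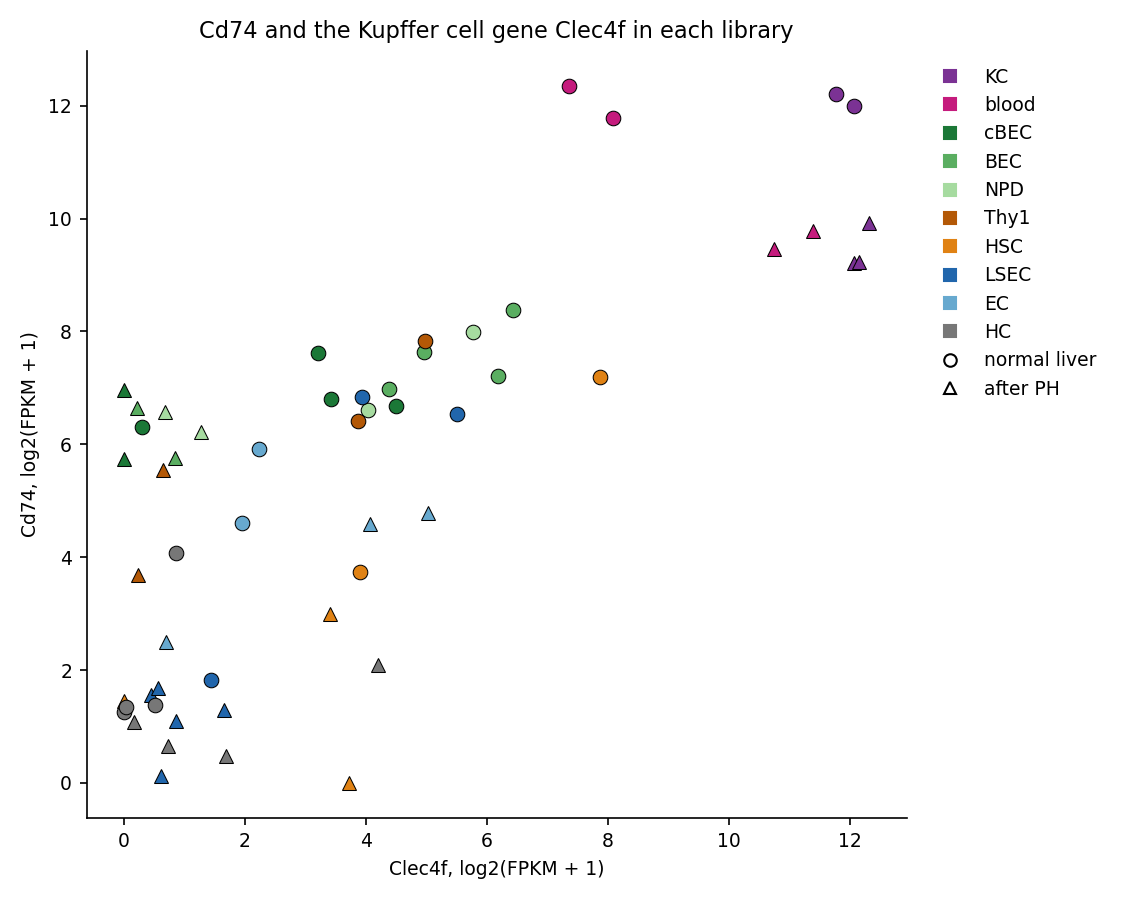
Cd74 against Clec4f in each of the 55 libraries, both as log2(FPKM + 1), coloured by population, with circles for normal liver and triangles for after PH. PH duct libraries (cBEC, BEC, NPD) stand at 52.5 to 123 FPKM of Cd74 with Clec4f at or near 0, and PH KC libraries lie below normal KC at a like level of Clec4f. The PH Thy1 libraries (45.5 and 11.9 FPKM of Cd74) also have Clec4f near 0.

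The change of the members in ducts did not pass the test. In BEC 0 of 8 members were called by limma (1.81% of all genes, 1.57% lower and 0.233% higher). An unadjusted p under 0.05 was found for 7, and all 8 had every PH library below every normal library. The shares of all genes that meet these criteria were not counted, so these counts are not a result about the members. Ciita and Cd86 passed the filter only through the normal libraries, where they were higher. H2-Aa was 42.2, 34.4, 87.7 and 27.2 FPKM in normal BEC and 12.6 and 3.55 after PH (log2 change -2.49, SE 0.53, adjusted p 0.0642). Cd74 was 198, 147, 334 and 125 before and 98.7 and 52.8 after (-1.36, SE 0.40, adjusted p 0.145). Cd86 was 0.777, 1.93, 2.05 and 0.379 before and listed at 0 after (adjusted p 0.196). The Kupffer sum without Csf1r was 93 to 371 FPKM in normal BEC, against 0.622 to 4.41 after, and its part in these values was not tested. With a pseudocount of 0.1, 2 members passed, and without normal BEC 4, 1 did.

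In NPD 0 of 7 members passed (limma, 15.2% of all genes, 5.51% lower and 9.65% higher). An unadjusted p under 0.05 was found for 2, a share not counted over all genes. H2-Aa was 66.5 and 24.5 FPKM before and 13.1 and 12.5 after (log2 change -1.59, SE 0.46, adjusted p 0.0777), and Ciita was 1.63 and 1.25 before and 0.547 and 0.76 after (-0.56, SE 0.30, adjusted p 0.258). The Kupffer sum without Csf1r was 326 and 146 FPKM in normal NPD and 14.4 and 10.3 after PH, and its part in these values was not tested. The 2 normal libraries differed widely, and without normal NPD 2 there were 6 members called, without normal NPD 1 there was 1. In cBEC 0 of 6 members passed (0.0681% of all genes, 0.0227% lower and 0.0454% higher) and 1, H2-DMb1, had an unadjusted p under 0.05: it was 5.99, 13.7, 9.62 and 8.77 FPKM before and 5.19 and 5.17 after (-0.72, SE 0.31, adjusted p 0.486). The response of cBEC less that of NPD passed for 0 of 7 members (4.56% of genes, 3.53% lower and 1.03% higher), also at an unadjusted p under 0.05, with a difference of 0.40 (SE 1.47) for Cd74.

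The endosomal cysteine protease Ctss, which completes the trimming of the invariant chain, did pass in the ducts. It fell from 27.6 ± 14.6 FPKM (SD, n = 4) to 0.3218 ± 0.417 (SD, n = 2) in BEC (log2 change -4.33, adjusted p 0.00358) and from 29.79 ± 16 (SD, n = 2) to 1.36 ± 0.475 (SD, n = 2) in NPD (-3.62, adjusted p 0.0121). In cBEC it was 6.168 ± 4.78 FPKM (SD, n = 4) before and listed at 0 in both libraries after, which did not pass (adjusted p 0.484). In KC it was 2649 ± 59.3 FPKM (SD, n = 2) before and 2240 ± 416 (SD, n = 3) after, and its values in BEC and NPD stood beside the Kupffer sums given above for these sorts. Of the other pathway genes, Irf8 (-1.78) fell in BEC, where 3 were lower and 0 higher of 19 tested, and the protease Ctsl (-1.14) fell in NPD, for 2 lower and 0 higher of 19. Among costimulatory genes Cd83 fell in BEC (-1.37), and Icosl (-2.01) and Cd274 (-1.38) fell in NPD. Among class I genes B2m fell (-1.22) and Calr rose (1.52) in NPD. In BEC 0 of 13 passed and 3 had an unadjusted p under 0.05, a share not counted over all genes.

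Stellate, Thy1 and hepatocyte sorts gave no call. In HSC 0 of 5 members passed (limma, 0.00853% of all genes). All 5 had an unadjusted p under 0.05, a share not counted over all genes. H2-Aa, H2-Ab1, H2-Eb1 and H2-DMa passed the filter only through the normal libraries, where they were higher, so this set favours falls. Cd74 was 12.3 and 146 FPKM before and 6.97, 1.72 and 0 after (log2 change -3.99, SE 1.15, adjusted p 0.454), and with all 20 groups in a single fit all 5 passed. The Kupffer sum was 83.6 and 1130 FPKM in the normal HSC libraries and 0.515 to 68.4 after PH, and its part was not tested.

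In Thy1 cells 0 of 7 members passed (limma, 0.00747% of all genes). An unadjusted p under 0.05 was found for 5, a share not counted over all genes. H2-Ab1 was 88.4 and 30.8 FPKM before and 11.1 and 2.68 after (log2 change -3.00, SE 0.74, adjusted p 0.18), with no overlap, and with all 20 groups in a single fit 3 members passed. Clec4f was 30.7 and 13.7 FPKM in the normal Thy1 libraries and 0.562 and 0.18 after PH, and Csf1r was 40.8 and 25.2 before and 4.4 and 3.19 after. The Kupffer sum was 97.4 to 174 before and 55.3 to 101 after, and the part of these markers was not tested. In HC only Cd74 passed the filter and it was not called (6.19% of all genes, 4.41% lower and 1.78% higher; log2 change -0.94, SE 0.63, adjusted p 0.431), at 1.6, 1.38, 1.54 and 15.9 FPKM before and 0.39, 3.27, 0.58 and 1.11 after. Of the other pathway genes 2 of 17 fell in HC, Irf1 (-0.80) and Ctsb (-0.71), and 0 rose, and of the class I genes H2-K1 fell, from 981.4 ± 75 FPKM (SD, n = 4) to 472.3 ± 129 (SD, n = 4) (-1.10, adjusted p 0.0296). In cBEC, EC, HSC and Thy1 cells no gene of the 3 other lists passed by limma. In that order of sorts, the unadjusted p was under 0.05 for 6, 2, 2 and 5 class II pathway genes. It was under 0.05 for 0, 0, 0 and 1 costimulatory genes and for 0, 9, 0 and 4 class I genes. The shares of all genes at that level were not counted, so these counts are not a result about the lists.

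The proportions of the members to one another also differed between sorts. H2-Aa as a percentage of H2-Ab1 in FPKM was 116 and 134 in normal KC and 125 to 166 in PH KC, and 136 to 144 in normal EC. It was 63.5 and 64.9 in normal blood and 110 and 115 in PH blood. In the 4 normal cBEC libraries it ran from 22.6 to 73.9, in normal BEC from 52.6 to 77.4, and in PH cBEC and PH BEC from 23.7 to 39.9, so every cBEC and BEC library had less H2-Aa than H2-Ab1. No test was made of these ratios, in which the length scaling of each transcript is fixed.

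H2-DMb1 as a percentage of Cd74 was 2.75 and 2.79 in normal KC and 13.3, 12.6 and 7.42 in PH KC, with the lower fold of H2-DMb1. H2-DMa behaved alike, from 3.32 and 3.8 to 7.55 to 12.2. In cBEC and BEC libraries the H2-DMb1 percentage ran from 4.22 to 12.4, without a gap between normal and PH. In PH Thy1 cells it reached 13.8 and 22. H2-Eb1 as a percentage of Cd74 was 12.9 and 17.3 in normal KC and 12.3 to 16.6 in PH KC.

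**Figure D5:**
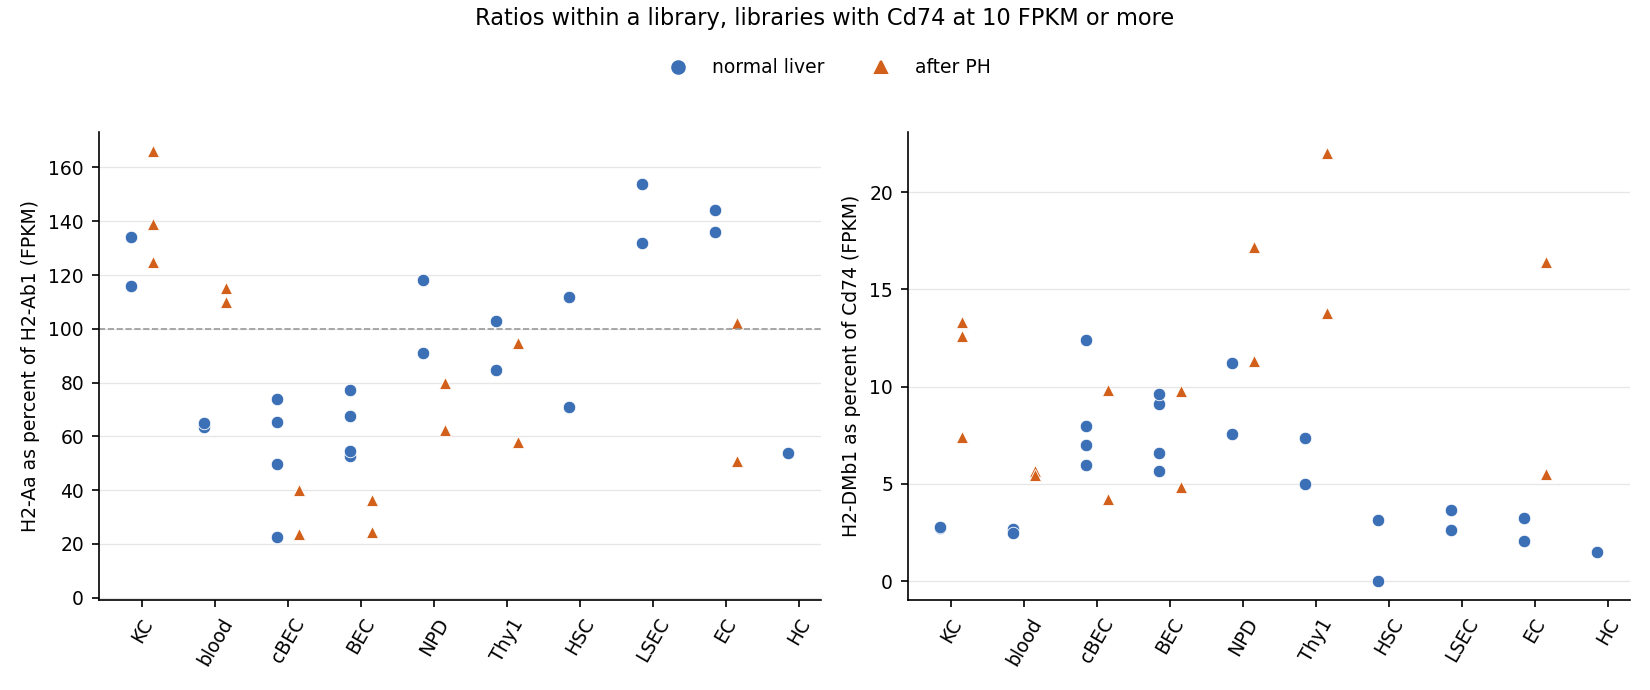
H2-Aa as a percentage of H2-Ab1 (left; the dashed line is 100) and H2-DMb1 as a percentage of Cd74 (right), each from FPKM within a library, for libraries with Cd74 at 10 FPKM or more. Each cBEC and BEC library lies below 100 on the left, and the 3 PH KC libraries (7.42 to 13.3) lie above the 2 normal ones (2.75 and 2.79) on the right.

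Across the 20 group means of log2(FPKM + 1), the class II chain genes and Cd74 had Pearson correlations of 0.96 to 0.99 with one another, and Ciita of 0.91 to 0.95 with them. Cd80 and Cd86 had a correlation of 0.98 with each other and of 0.72 to 0.85 with the chains and Cd74. These are descriptions over groups that share sorts and libraries. Among 15340 genes ranked by their correlation with the mean of H2-Aa, H2-Ab1, H2-Eb1 and Cd74, H2-DMb1 (0.957), H2-DMa (0.956) and Ciita (0.937) held ranks 1 to 3, while Cd86 was at rank 279 (0.806) and Cd80 at rank 400 (0.78). The 8 genes most alike that are not members were Atp13a2 (0.928), Epsti1 (0.927), Gbp8, Csf1r and Rilpl2 (each 0.925), Bin3 (0.923), Pmaip1 (0.921) and Stk17b (0.919). All 8 had their highest mean in KC or blood. Csf1r, the receptor of macrophage colony-stimulating factor, shared with the class II genes its presence in ducts, at 51.3 FPKM on average in PH cBEC and 45.4 in PH BEC.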

How the data were processed

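RNA sequencing of 55 sorted-cell libraries was deposited as a table of FPKM with 1 row per RefSeq transcript and locus (36141 rows, 24478 symbols). The unit is the name the authors gave the deposited table, whose headers state none. The submitters' processing notes name CASAVA 1.8.2, Bowtie 1.0.0 and the mm9 build, with no role. FPKM hold no read depth, so no counting interval is given. Among low transcripts of PH KC 1 and 2, the ratio 0.9913 occurred in 35 of 549 and 1.9827 in 25, which shows steps of single reads but not the depth. All 55 sample columns were mapped by title.

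The 16 comparisons used limma (3.58.1; R 4.3.3) on log2 values of FPKM plus 1, with a variance trend, robust and two-sided, and Benjamini-Hochberg adjustment over all genes tested. A gene was tested where the number of compared libraries at 1 FPKM or above was no lower than the size of the smallest group. A gene could thus pass through a single group. Among others, H2-Aa in LSEC and Ciita in BEC, NPD and Thy1 cells passed only through the normal libraries, which favours falls. A pseudocount of 1 understates the change of low genes. A comparison used its own 2 groups, and the 3 differences of responses used all 20 groups. Log2 changes are the first group less the second. The shares of all genes with an unadjusted p under 0.05, or without overlap between groups, were not counted. Such counts of members and of listed genes therefore stand without a background. The members, the 3 other gene lists, the marker lists and the naming rule were chosen with earlier results of these data known. Named were every member tested, the 2 largest rises and 2 largest falls past the call in each other list and PH comparison, and the 8 genes most alike in pattern. Ctss in KC and in cBEC falls outside it and was named after its values were seen, and 1 gene is not reported here. The alternatives were quantile normalization, a pseudocount of 0.1, upper-quartile scaling, no filter, the mean over a symbol's rows, a block on the replicate number, another set of groups in the fit and leaving out each library. When tested on simulated data in which 200 genes were shifted by 2 log2 units, 157 were recovered in the KC design (11835 genes), 192 in LSEC (11501), 122 in blood (12819), 113 in NPD (13024), 15 in HSC (11729) and 132 for the KC and blood responses (13198). Unchanged genes called beside them numbered 14, 30, 13, 6, 5 and 55 in that order. In this single run the share of false calls was above the threshold of 0.05 in all 6 designs. In NPD (6 beside 113) and HSC (5 beside 15) it rests on few calls. All groups were simulated around a common mean, whereas the data called 4350 genes in KC and 8199 in blood. The share of false calls in the data is therefore unknown. Figures used Python 3.11.15 and matplotlib 3.10.9. Promoter sequences are from RefSeq (GRCm38.p6) and were not joined to mm9 coordinates.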

Additional observations from a re-analysis of the deposited data

Results flagged for a closer look

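Of 44 combinations of a member and a group of 4 or 5 libraries examined, 11 held a library far from the others of its group. By chance 2.2 would be expected if values were normally spread, which values near 0 are not. With 3 libraries listed at 0, as for H2-DMb1 in normal HC, any other value is flagged. Most flags came from normal HC 4 and PH HC 2, so 11 is not a count of separate results. Ciita in normal cBEC 2 was 2.7 FPKM against 0.819 to 0.928 in the other libraries. Normal HC 4 stood above the other normal hepatocyte libraries in 6 members: H2-Aa at 8.74 FPKM against 0.24 to 0.45, H2-Ab1 at 16.2 against 0.2 to 0.87, H2-Eb1 at 4.27 against 0.15 to 0.36, Cd74 at 15.9 against 1.38 to 1.6, H2-DMb1 at 0.24 where the others were listed at 0, and Cd86 at 0.22 against at most 0.03. Its Kupffer marker sum was 15.2 FPKM, and that of the other 3 was at most 2. PH HC 2 stood above its group in H2-Eb1 (0.53 FPKM against 0.05 to 0.09), Cd80 (0.13 against at most 0.02) and Cd86 (0.83 against at most 0.03), with a Kupffer marker sum of 152 FPKM where the others had at most 18.8. H2-Ab1 in PH LSEC 3 was 0.0786 FPKM against 0.821 to 1.24 in the other 4 libraries.

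The change of Cd80 after PH differed between KC and blood by -1.57 on the log2 scale (limma, adjusted p 7.24e-07), with 0.03 in KC and 1.6 in blood. This test took the spread over all 20 groups, in several of which Cd80 was listed at 0 in every library. In simulated data this test called 55 unchanged genes beside the 132 recovered of 200 changed. Both PH blood libraries were above both normal ones, and the KC libraries overlapped.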

How the results depend on the processing

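No member's log2 change reversed: of 285 values of called members under the alternatives, 240 stayed past the call and 45 did not. The number of members called moved as follows. With a pseudocount of 0.1 it was 2 in BEC (0 as reported), 1 in LSEC (2) and 0 for the KC and blood responses (1). With no filter it was 1 in LSEC, 2 for KC against blood in normal liver (4) and 1 for cBEC against NPD in normal liver (0). It was 1 in LSEC with quantile normalization and with upper-quartile scaling, which also gave 1 in NPD (0). A single fit of all 20 groups gave 3 in LSEC (2), 3 in KC (8), 5 in blood (9), 5 in HSC (0), 3 in Thy1 cells (0) and 2 for KC against blood in normal liver. The 4 groups alone gave 3 for the KC and blood responses. In these cases the cause was not tested. With each library left out in turn, the number ran from 6 to 8 in KC, 3 to 9 in blood, 1 to 3 in LSEC, 0 to 1 in BEC, 0 to 6 in NPD, 2 to 3 for KC against blood in normal liver and 0 to 1 for the LSEC and EC responses, and it stayed at the reported number in the other 9 comparisons. Where 1 library remained in a group, it was assumed to vary like the other group.

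Replicate numbers were not taken to pair the libraries, since no label says so: same-numbered libraries deviated together with correlations of -0.67 to 0.57 in HC, -0.24 to -0.02 in LSEC and -0.16 to 0.13 in the PH comparisons with 2 shared numbers. Every library correlated best with its own number in cBEC, BEC, NPD, HSC and Thy1 cells, and not in HC, LSEC, EC, KC and blood. With the replicate block, 6 members were called in BEC, 1 in NPD, 4 in Thy1 cells, 0 in LSEC and 3 for KC against blood in normal liver, and the number was as reported in the other comparisons. Unknown read depth, groups of 2 libraries and zeros in low genes limit all of these values.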
